A study of Homo sapiens with 2 samples.

Results

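The genes described here were 10 members of the chemokine and interleukin 1 systems, namely the chemokines CXCL1, CXCL2, CXCL3, CXCL5, CXCL12, CCL2 and CCL20, the chemokine receptor CXCR4, and the interleukins IL1A and IL1B. They were chosen by name from a table of 18394 genes, and all 10 were found. The rule uses no measured value, but the list was drawn up with earlier results of these data known, so the counts set beside background shares below are not independent evidence about these genes. The study compared MDA-MB-231(SA), a variant used as a model of bone metastasis in mice, with the parental MDA-MB-231 line, an established human breast cancer line. Each line was measured on 1 array, from 3 µg of total RNA of cells grown in flasks, in medium with 10% serum and 1000 mg/L glucose; the labels give no treatment for either line. The rows of the table carry Ensembl IDs with the ending _at and no symbols, and the symbols used here came with the list of the 10 IDs.

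With 1 array per line no test was possible, no p-value is given, and no difference below has a replicate check. A line-wide difference also cannot be told apart from a difference between these cultures on the day of harvest or between these arrays. All levels are RMA values, which summarise the probes of a gene on the log2 scale after background correction, and all differences are the SA variant minus the parental line, so that 1 is a 2-fold change. A gene was compared where it reached a floor of 5.62, the median of all values, on at least 1 array. It was counted as higher or lower where its difference reached 2-fold. The line's other defining genes were not checked, because no table used here ties their symbols to the IDs. In RNA of whole cultures, fewer expressing cells and less RNA per cell cannot be told apart.

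Chemokines are small secreted proteins that guide cell movement through receptors in the cell membrane. CXCL1, CXCL2, CXCL3 and CXCL5 carry a glutamate-leucine-arginine motif and attract neutrophils through the receptor CXCR2. CXCL12 is the main ligand of CXCR4, and is made in bone marrow by stromal cells, where it holds blood stem cells and attracts CXCR4-bearing tumour cells. Interleukin 1 alpha and beta signal through a common receptor to NF-kappaB, the transcription factor that switches on many chemokine genes.

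CXCR4 was 20.7-fold lower in the SA variant than in the parental line, and IL1B was 7.49-fold higher. CXCL3 and CXCL1 were 2.62-fold and 2.26-fold higher. CXCL2, of the same chemokine group, was 1.45-fold lower, short of the 2-fold size. CCL20 was 2.29-fold higher but lay below the floor on both arrays, as did CXCL5, CXCL12, CCL2 and IL1A, which differed by less than 2-fold.

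**Figure D1:**
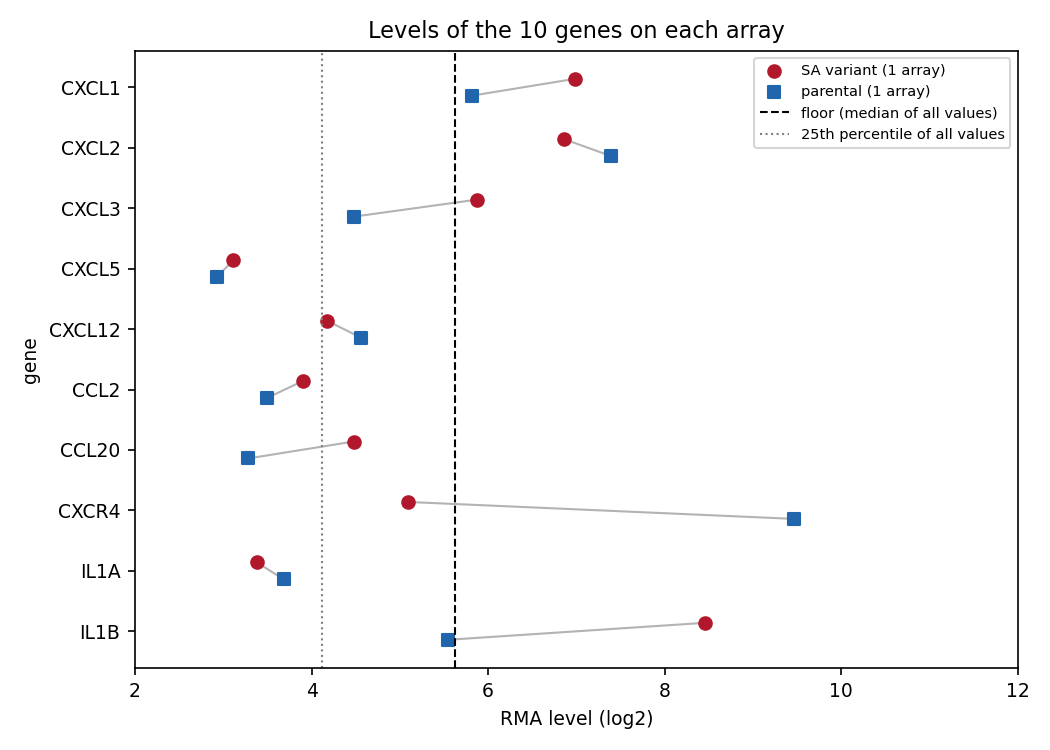
RMA level on the log2 scale (horizontal axis) of each of the 10 genes (rows) on the SA variant array (circles) and the parental array (squares). Grey lines join the values of a gene, the dashed line is the floor of 5.62 and the dotted line the 25th percentile of all values, 4.12. CXCR4, at 5.09 in the SA variant and 9.46 in the parental line, and IL1B, at 8.45 in the SA variant and 5.55 in the parental line, have the longest lines, in opposite directions.

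Of the 10 genes, 5 reached the floor on at least 1 array: CXCL1, CXCL2, CXCL3, CXCR4 and IL1B. Only CXCL1 and CXCL2 reached it on both. CXCL3 and IL1B passed through the SA variant alone and CXCR4 through the parental line alone. A gene that passed through 1 array alone lay above the floor there and below it on the other. Some difference in that direction is built into such a group, so the counts describe these genes and support nothing further. Among the 5 compared, the SA variant was higher by at least 2-fold in 3, where the background over all 9725 genes compared was 5.75%. It was lower by that size in 1, CXCR4, where the background was 4.17%. Without a floor, 4 of the 10 were higher by 2-fold or more and 1 was lower, against 3.50% and 2.50% of all 18394 genes.

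Other floors changed which genes were counted, and a 3-fold size kept fewer. A floor at the 25th percentile of all values kept 4 genes 2-fold higher, with CCL20 added, against a background of 4.50%, and 1 lower, CXCR4, against 3.19%. A floor at the 75th percentile kept 1 higher, IL1B, against 6.04%, and 1 lower, CXCR4, against 5.02%. With the floor asked for on both arrays, 1 gene was 2-fold higher, CXCL1, against 4.13%, and 0 were lower, against 3.26%. A 3-fold size was passed upward by 1 gene, IL1B, against 1.92%, and downward by 1, CXCR4, against 1.19%. A 1.5-fold size gave the same counts as the 2-fold size, 3 higher and 1 lower. No background share was computed for it.

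Of the 10 differences, 6 were positive and 4 were negative, and their median was 0.29, against -0.0045 over all 18394 genes. Over the 5 compared genes the median was 1.17, against 0.045 over the 9725. These medians hide the spread among the 10, since the differences ran from -4.37 for CXCR4 to 2.91 for IL1B.

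**Figure D2:**
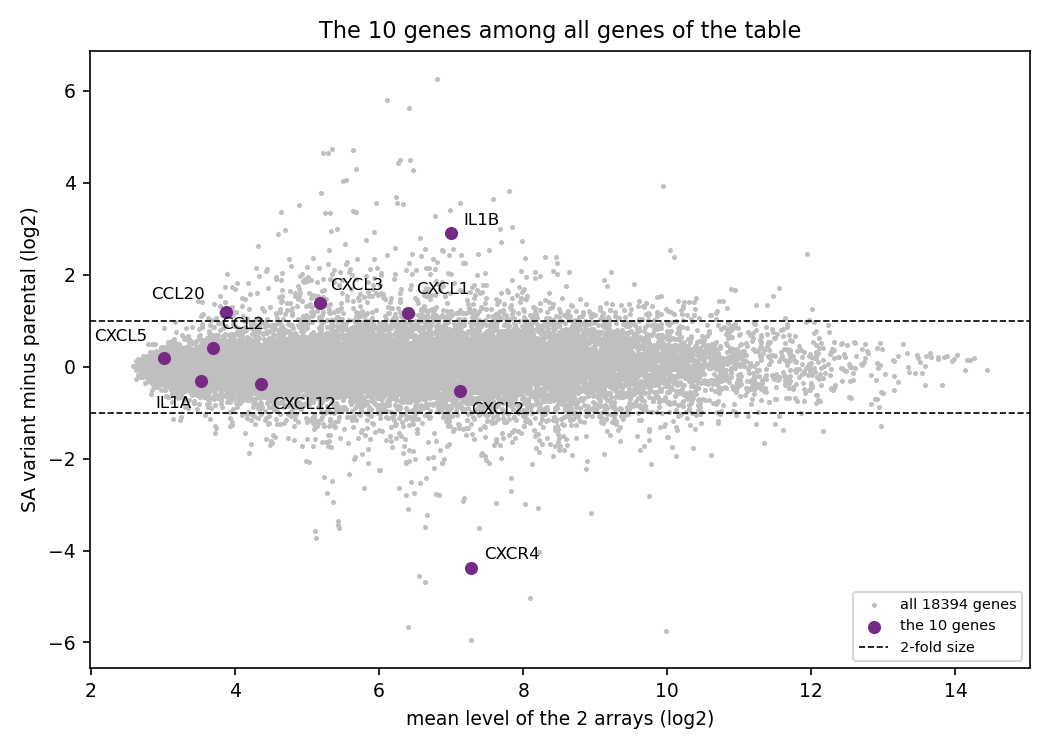
Difference, SA variant minus parental, on the log2 scale (vertical axis) against the mean level of both arrays on the log2 scale (horizontal axis), for all 18394 genes (grey) and the 10 genes (purple, with their symbols). Dashed lines mark the 2-fold size. CXCR4 at -4.37 and IL1B at 2.91 lie outside the dense band of genes, while CXCL5, CXCL12, CCL2, IL1A and CXCL2 lie inside it.

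CXCR4 (ENSG00000121966_at), the receptor for CXCL12, had a level of 5.09 in the SA variant and 9.46 in the parental line. The parental value lay 3.85 above the floor, and the SA value lay under it but above the 25th percentile of all values, 4.12. The difference was -4.37. Only 7 of the 9725 genes compared, CXCR4 included, had a difference as low, or 0.0720% of them. By rank within each array, which no rescaling of an array can alter, CXCR4 stood at percentile 42.2 in the SA variant and at percentile 91.9 in the parental line. RMA leaves background signal in dim values, which by itself would make the 20.7-fold too small if the receptor gene was silent in the SA variant. Without a replicate, the fold may also be too large.

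The reference sequence before the start of CXCR4 is shown because this gene had the largest difference of the 10. It is the 100 bases before the most upstream of the 3 annotated starts in RefSeq, read 5′ to 3′ on the minus strand at chr2:136118150-136118249 (GRCh38.p14). Capitals mark, in order, the longest perfect palindrome of the 250 bases before the start, which reads the same on both strands, and a TATA-like run.
CXCR4: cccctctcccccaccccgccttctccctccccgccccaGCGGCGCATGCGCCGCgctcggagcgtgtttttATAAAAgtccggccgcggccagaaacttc
The palindrome GCGGCGCATGCGCCGC has 16 bases and lies 62 to 47 bases before the start. Its centre has the form that the transcription factor NRF1 is known to bind. A perfect palindrome of at least 16 bases was found in 1 of the 9 genes with a promoter entry, CXCR4, and in 1.09% of all 35114 promoter windows of 250 bases. That length was taken from CXCR4 itself, so its match was fixed in advance and the count is no evidence of enrichment. The sequence says what is encoded there in the reference genome, and nothing about binding in either line.

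CXCL12 (ENSG00000107562_at), the ligand of CXCR4, was dim on both arrays. It had a level of 4.17 in the SA variant and 4.56 in the parental line, a difference of -0.39. Both values lay between the 25th percentile and the floor. Of the 8669 genes that missed the floor on both arrays, 9.32% had a difference as low. The table thus placed a large difference at the receptor of this pair and none of 2-fold size at the ligand, whose dim signal limits how small a difference could be seen.

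IL1B (ENSG00000125538_at), a secreted cytokine that is made as a precursor and cut to its active form by caspase-1, had a level of 8.45 in the SA variant and 5.55 in the parental line. The parental value was just under the floor, and the SA value was 2.83 above it. The difference was 2.91, or 7.49-fold, and 38 of the 9725 compared genes (0.391%), IL1B included, had a difference as high. As for CXCR4, any background left in the dimmer value would by itself make this fold too small, but its amount is not known. The fold has no replicate and IL1B passed the floor through the SA variant alone, so it may also be too large. The rank of IL1B was percentile 83.6 on the SA array and 49.2 on the parental array. Messenger RNA does not show how much precursor was cut or released.

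IL1A (ENSG00000115008_at), which acts on the same receptor and is active also as a precursor, gave no such difference. Its level was 3.38 in the SA variant and 3.68 in the parental line, both below the 25th percentile of all values. The difference was -0.30, and 1299 of the 8669 genes that missed the floor on both arrays had one as low. IL1A and IL1B are next to each other on chromosome 2 in RefSeq (GRCh38.p14), with 0 protein-coding genes between them. Their differences were 3.21 apart on the log2 scale.

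The IL1B start is shown beside that of CXCR4, because the 2 genes had the largest differences of opposite sign. These are the 100 bases before the IL1B start in RefSeq, on the minus strand at chr2:112836780-112836879 (GRCh38.p14), with a TATA-like run in capitals.
IL1B: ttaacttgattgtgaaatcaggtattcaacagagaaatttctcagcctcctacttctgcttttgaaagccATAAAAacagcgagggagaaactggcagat
The run ATAAAA lies 30 to 25 bases before the start in IL1B and 29 to 24 bases before it in CXCR4. Neither the run shared by the CXCL genes, described next, nor the CXCR4 palindrome was found in the 250 bases before the IL1B start.

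**Figure D3:**
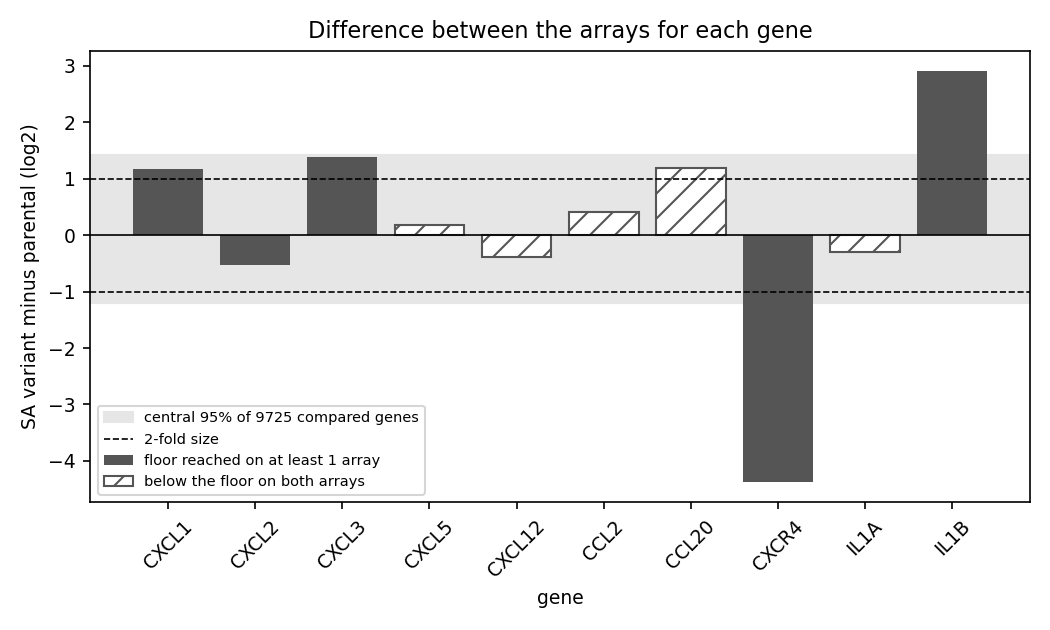
Difference, SA variant minus parental, on the log2 scale (vertical axis) for each of the 10 genes (horizontal axis). Filled bars are genes that reached the floor on at least 1 array, hatched bars are genes below it on both, dashed lines mark the 2-fold size and the grey band, from -1.20 to 1.42, holds the central 95% of the 9725 compared genes. Only CXCR4 and IL1B pass the band, which was not drawn from genes like the hatched ones. Of the hatched genes, CCL20 at 1.20 lies outside the central 95% of genes below the floor on both arrays. That range, from -0.63 to 0.68, is narrow partly by construction.

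CXCL1 (ENSG00000163739_at), a neutrophil attractant also known as GRO-alpha, had a level of 6.99 in the SA variant and 5.81 in the parental line. Both values were above the floor, the parental one by 0.19. The difference was 1.17, and 375 of the 9725 compared genes (3.86%) had one as high. CXCL3 (ENSG00000163734_at), GRO-gamma, had a level of 5.87 in the SA variant and 4.48 in the parental line. The SA value passed the floor by 0.25 and the parental value missed it. The CXCL3 difference of 1.39 was matched or passed by 256 compared genes (2.63%). Both differences lay inside the central 95% of the compared genes, which ran from -1.20 to 1.42, so neither stood apart from them as CXCR4 and IL1B did.

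CXCL2 (ENSG00000081041_at), GRO-beta, had a difference of the opposite sign. Its level was 6.86 in the SA variant and 7.40 in the parental line, both above the floor, and the difference was -0.53. Among the compared genes, 13.8% had a difference as low. The CXCL1 difference was 1.71 above that of CXCL2 on the log2 scale, and the CXCL3 difference was 1.92 above it, while CXCL3 and CXCL1 were 0.21 apart. The transcripts of these 3 genes are closely related, and the probe set definition is not given in the sources used here. Whether their probes also bound each other's transcripts was not tested, and the split of signal between them is uncertain.

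CXCL5 (ENSG00000163735_at), also called ENA-78, was near the bottom of both arrays. It had a level of 3.11 in the SA variant and 2.93 in the parental line, at percentile 5.11 of the SA array and percentile 1.58 of the parental array. The difference of 0.19 was matched or passed by 20.0% of the genes that missed the floor on both. No difference was detectable at this signal, which does not show that CXCL5 was absent from either line.

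These 4 chemokine genes lie in 1 cluster on chromosome 4 in RefSeq. In the order CXCL1, CXCL5, CXCL3, CXCL2, only 2 further protein-coding genes, PF4 and PPBP, stand between CXCL1 and CXCL5, and 0 stand between the others. The 100 bases before each start are shown because all 4 share a sequence of the kind NF-kappaB binds close to the start, although their differences did not run alike. Capitals mark the longest run that all 4 share in the 250 bases before the start first and a TATA-like run second, and each is read 5′ to 3′ on the strand of its gene (GRCh38.p14). The stretches are chr4:73869293-73869392 on the plus strand for CXCL1, and on the minus strand chr4:74099196-74099295 for CXCL2, chr4:74038690-74038789 for CXCL3 and chr4:73998678-73998777 for CXCL5.
CXCL1: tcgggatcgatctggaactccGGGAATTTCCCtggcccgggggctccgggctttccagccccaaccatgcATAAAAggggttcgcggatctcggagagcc
CXCL2: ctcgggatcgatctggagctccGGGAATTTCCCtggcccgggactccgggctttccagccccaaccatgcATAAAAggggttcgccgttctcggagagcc
CXCL3: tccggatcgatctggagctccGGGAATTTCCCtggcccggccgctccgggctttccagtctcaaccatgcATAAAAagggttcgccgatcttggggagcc
CXCL5: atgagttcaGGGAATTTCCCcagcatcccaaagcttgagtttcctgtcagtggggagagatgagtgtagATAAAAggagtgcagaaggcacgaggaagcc

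The shared run GGGAATTTCCC holds a kappaB site, the name for sequences that NF-kappaB binds. It began 79 bases before the start in CXCL1 and CXCL3, 78 in CXCL2 and 91 in CXCL5. Searched on either strand, it was found in these 4 of the 9 genes with a promoter entry and in 0.0769% of all 35114 windows (27 of them). The run was chosen because these 4 share it, and the genes are copies of 1 ancestral gene, so their matches are not independent. The run ATAAAA was searched on either strand in the 40 bases before the start. The run ATAAAA was found in 6 of the 9 genes, namely CXCL1, CXCL2, CXCL3, CXCL5, CXCR4 and IL1B. The share over all windows cut to the same 40 bases was 2.92%. This run too was chosen after the promoters had been seen, and 4 of the 6 are the related CXCL genes. The count is therefore a description and no evidence of enrichment. In CXCR4 the run ATAAAA was found on both strands, the opposite one overlapping by 2 bases.

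Over the whole 250 bases before the start, CXCL1 and CXCL3 were 81.4% identical in a global alignment with gaps counted, CXCL2 and CXCL3 73.3% and CXCL1 and CXCL2 68.0%. CXCL5 was 48.9% to 50.7% identical to the other 3. The differences were 1.17 for CXCL1, 1.39 for CXCL3 and 0.19 for CXCL5, which was dim on both arrays. CXCL2 held the same shared run at nearly the same distance and had a difference of -0.53. With 4 genes and 1 array per line this is a description only. Any link between promoter sequence and these differences was not tested. Whether probes of these related genes also bound each other's transcripts was not tested either.

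**Figure D4:**
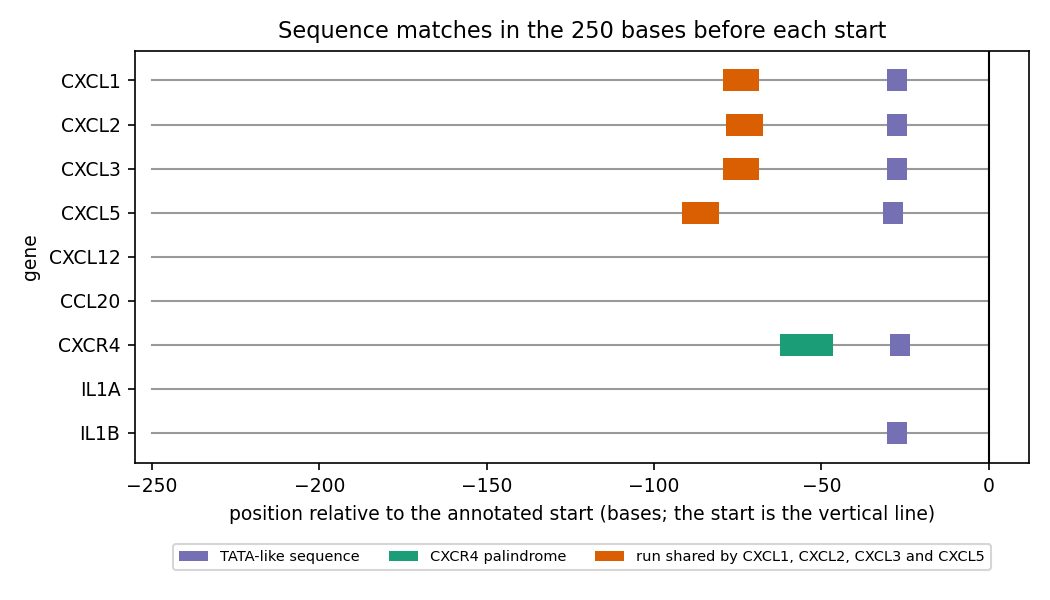
Position in bases relative to the annotated start (horizontal axis; the vertical line is the start) of sequence matches in the 250 bases before it, for the 9 genes with a promoter entry (rows). Orange blocks are the run GGGAATTTCCC, the green block is the CXCR4 palindrome and violet blocks are the run ATAAAA on the strand of the gene within 40 bases of the start. The shared run lies between 91 and 68 bases before the start in CXCL1, CXCL2, CXCL3 and CXCL5. No marked match lies in CXCL12, CCL20 or IL1A. Only the most upstream annotated start of a gene was searched, and IL1A has 2 such starts.

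CCL20 (ENSG00000115009_at), which attracts CCR6-bearing lymphocytes and dendritic cells, had a level of 4.48 in the SA variant and 3.28 in the parental line. Both values were below the floor, and the parental one was below the 25th percentile. Its difference of 1.20 (2.29-fold) was nonetheless large for a dim gene. Of the 8669 genes that missed the floor on both arrays, 48 (0.554%), CCL20 included, had a difference as high, and the central 95% of them ran from -0.63 to 0.68. That range is narrow partly by construction, because large differences lift dim genes over the floor and out of the group. The 2-fold size was passed upward by 0.981% of these dim genes.

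CCL2 (ENSG00000108691_at), the monocyte attractant MCP-1, had a level of 3.90 in the SA variant and 3.50 in the parental line. Both lay below the 25th percentile of all values. The difference of 0.40 was inside the central 95% of the dim genes, of which 7.45% had one as high. As for CXCL5 and IL1A, a 2-fold difference was not seen, in signal dim enough that RMA values can hold much background.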

How the data were processed

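Both arrays hybridised biotin-labelled cRNA, per the labels' protocols. The deposited values are log2 levels made with RMA, per the submitters' processing notes. Base 2 was assumed, since RMA writes it and the values ran from 2.50 to 14.5. Neither the RMA version nor the array model is stated in the labels. The arrays give no read depth, and their number limits the precision.

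Differences were computed as SA variant minus parental from the deposited values, with no further normalization, using Python 3.11.15, numpy 2.4.6 and pandas 2.3.3. The floor and the 2-fold rule were tried on simulated data, with changes larger than 2-fold placed in genes of higher parental level. That trial does not cover genes near the floor or near the 2-fold size. The motif search was tried on short made-up sequences. Alternatives were other floors (25th and 75th percentile, none, both arrays), centring, a lowess trend (span 0.4, statsmodels 0.14.6), quantile normalization and rules of 1.5-fold and 3-fold.

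Promoter sequences came from RefSeq (GRCh38.p14) and were aligned with Biopython 1.88. CCL2 was not matched. Each member was searched before its most upstream annotated start only, although IL1A has 2 starts and CXCR4 has 3. The windows used as background also hold further starts of a gene. The sequence runs were chosen after the promoters had been seen. The members and lists were chosen with earlier results of these data known. The rule for named genes was to name all 10 members, and further genes only where a table tied symbols to IDs. None did, as 0 of 59792 reference rows held an Ensembl ID, so 9 wider lists (chemokines, their receptors, interleukin 1 signalling and others) and the cell type markers are not analysed here.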

Additional observations from a re-analysis of the deposited data

How the results depend on the processing

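No paired analysis was possible because each line had a single array, and no array could be left out. A floor decides only whether a gene is compared and cannot move its difference. Under centring and quantile normalization, each gene kept its direction and its side of the 2-fold size. The 5 compared genes did so under trend subtraction too, with CXCR4 between -4.42 and -4.41 and IL1B between 2.85 and 2.87. The deposited arrays were already close in scale, with medians of 5.64 in the SA variant and 5.60 in the parental line. These steps could therefore move a difference only a little, and the unchanged calls are a weak check. Setting the floor at the 25th percentile, or using none, added CCL20 to give 4 genes 2-fold higher. With the floor at the 75th percentile 1 gene was higher, IL1B, and the median of the 2 genes left was -0.73. With the floor on both arrays 1 gene was higher, CXCL1, and 0 were lower, with a median of 0.32. With no floor the median was 0.29. The 3-fold rule left 1 higher gene, IL1B. These shifts follow from which genes a floor or size admits. Dim signal limits the folds of CXCR4, IL1B, CXCL3 and the 5 genes below the floor.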
